A study of Mus musculus with 8 samples.

Results

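The noncoding genes described here, in mouse liver with and without the liver X receptors (LXRs), are 1700061I17Rik, Gm42047, Gm48199, Gm2788 and 0610005C13Rik. They are 5 of the 25010 genes in the table and 5 of its 3497 long noncoding genes. They were picked by symbol because their normalized counts in LXR-deficient liver differed from WT by a large amount or in the same way in both livers. That choice used the comparison of WT with LXRDKO, so their values in that comparison are a description, and no P value is given for them. GENCODE lists all 5 as noncoding, 3 as lincRNA, Gm2788 as a processed transcript and 0610005C13Rik as antisense.

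Left liver lobes came from 2 WT and 2 LXRDKO mice, C57BL/6 animals of 8 wk that had gone without food for 4 to 6 h. LXRDKO mice lack LXRα (Nr1h3) and LXRβ (Nr1h2) in every tissue, so differences in the liver need not arise in hepatocytes. Polyadenylated RNA was sequenced as single-end reads of 50 bp, and the authors deposited read counts divided by 1 size factor per liver, called normalized counts here. A gene was tested where its mean over the 4 livers reached 10 normalized counts, and all 5 noncoding genes passed.

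Long noncoding RNAs are long transcripts that do not encode a known protein. Many are spliced, capped and polyadenylated like mRNA. Some act in the nucleus on chromatin or on nearby genes, some serve as hosts for small RNAs, and for many no function is known. LXRs are nuclear receptors that sense oxysterols and pair with RXR at repeats of a hormone response half-site, and in liver they control cholesterol disposal and fatty acid synthesis.

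Between 55772659 and 72842744 reads per liver were assigned to genes. The median absolute log2 difference of a gene between replicates was 0.18 in WT and 0.17 in LXRDKO. Nr1h3 transcript fell to 0.319 of the WT level and Nr1h2 transcript to 0.316 (limma adjusted P = 0.0147 for both), in the direction the labels state. Each library was taken as 1 mouse, and P values measure the spread among these 4 livers.

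The transcribed sequences are shown first, because the names of these genes say little of what they are. Each line gives the first splice junction of a transcript on its own strand of GRCm38 (mm10). The end of exon 1 is in lower case and the first 40 bases of exon 2 are in capitals, so the change of case marks the position where the intron is removed.
1700061I17Rik: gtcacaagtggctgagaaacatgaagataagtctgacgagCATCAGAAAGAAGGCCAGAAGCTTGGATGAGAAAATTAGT
Gm48199: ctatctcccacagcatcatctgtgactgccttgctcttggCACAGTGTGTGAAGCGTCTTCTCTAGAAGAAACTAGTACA
Gm2788: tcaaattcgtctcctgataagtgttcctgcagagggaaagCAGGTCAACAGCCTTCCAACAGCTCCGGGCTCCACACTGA
0610005C13Rik: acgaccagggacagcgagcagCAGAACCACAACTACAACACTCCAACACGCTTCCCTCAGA
For 1700061I17Rik the bases lie at chr3:117077393-117077432 and chr3:117077188-117077227 on the minus strand. The Gm48199 junction joins chr13:52180516-52180555 to chr13:52181176-52181215 on the plus strand. For Gm2788 it joins chr7:48878073-48878112 to chr7:48878331-48878370 on the plus strand. Exon 1 of 0610005C13Rik is 21 bases long and lies at chr7:45575127-45575147, and exon 2 begins within chr7:45574807-45574846, both on the minus strand.

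The 4 transcripts that carry these junctions have lengths of 1962, 496, 797 and 856 bases in the order of the lines above. Their longest open reading frames span 126, 16, 88 and 68 codons. Gm42047 has no junction here because most of its sequence is repeated in the genome. Its longest spliced form is 4988 bases and has an open reading frame of 393 codons, the longest among the transcripts of the 5 genes.

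How far a read of 50 bases can be placed differed sharply between the genes. All 1533 windows of 50 bases along the exons of 1700061I17Rik and all 349 of Gm48199 occurred once in GRCm38. The share was 98.0% for Gm2788 and 96.6% for 0610005C13Rik. In Gm42047 it was 10.7%, that is 583 of 5451 windows, with a median of 35 copies per window, and 81.2% of its exon bases are marked as repeats. Gm42047 shares 1700 windows with the lincRNA Gm47761, 1791 with Gm47939 and 1785 with Gm43549. How reads with several matches were counted is not given in the sources used here, so the level of Gm42047 is uncertain while that of the other 4 is largely free of this limit.

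**Figure D1:**
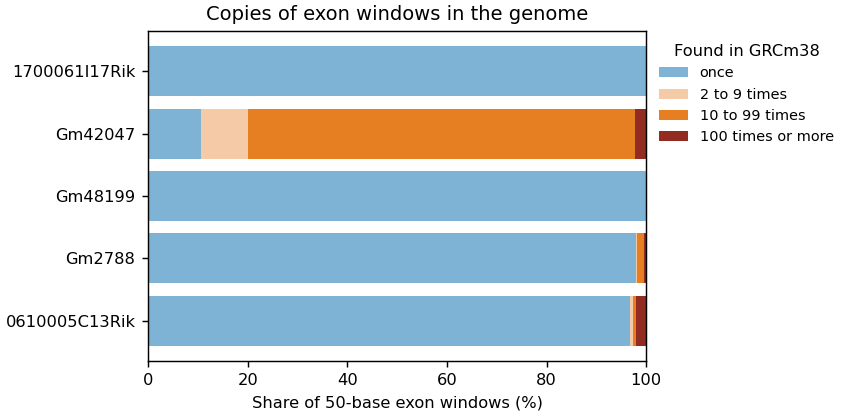
Share of 50-base windows along the exons of each gene (x axis, percent) that occur once, 2 to 9, 10 to 99, or 100 or more times in GRCm38 (colours). Gm42047 has 10.7% of windows found once, and the other 4 genes have at least 96.6%.

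Promoter windows from RefSeq on GRCm38.p6, from 250 bases before the start to 50 after it, were present for 2 of the 5 genes. They are printed to show what these windows hold of the motifs searched, with the single match in capitals.
1700061I17Rik: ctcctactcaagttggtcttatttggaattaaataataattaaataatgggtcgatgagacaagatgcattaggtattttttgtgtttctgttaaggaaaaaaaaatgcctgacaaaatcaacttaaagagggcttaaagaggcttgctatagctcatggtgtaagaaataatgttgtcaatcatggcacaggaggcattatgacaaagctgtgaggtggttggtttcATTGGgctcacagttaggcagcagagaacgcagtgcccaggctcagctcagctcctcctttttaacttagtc
0610005C13Rik: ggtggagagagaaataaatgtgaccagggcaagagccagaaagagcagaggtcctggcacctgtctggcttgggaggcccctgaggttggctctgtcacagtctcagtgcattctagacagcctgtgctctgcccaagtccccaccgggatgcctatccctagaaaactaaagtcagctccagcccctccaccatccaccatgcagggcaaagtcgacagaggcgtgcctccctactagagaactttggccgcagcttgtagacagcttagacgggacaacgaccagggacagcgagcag
The windows lie at chr3:117077716-117078015 and chr7:45575127-45575426, both on the minus strand. The motifs, searched on both strands, were the DR4 repeat that LXR and RXR bind, the half-site AGGTCA that this repeat holds in pairs, the CCAAT box, the TATA box as TATAAA, and the p53 half-site. The capitals mark CCAAT on the opposite strand, at −22 to −18 from the start of 1700061I17Rik. Of 32851 promoter windows in the RefSeq table, 37.4% hold the CCAAT box, 16.3% the AGGTCA half-site, 13.6% the TATA box, 8.36% the p53 half-site and 0.0152% the DR4 repeat. A match is a string of letters, and its absence says only that these letters are not in the window.

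1700061I17Rik, Gm42047 and Gm48199 were more abundant in LXRDKO livers, and no WT liver reached the level of an LXRDKO liver. 1700061I17Rik (ENSMUSG00000028009) is a lincRNA of 9 exons on chromosome 3 from 117060522 to 117077765, minus strand. It had 11.4 and 11.03 normalized counts in WT livers against 135.7 and 144.7 in LXRDKO livers. The means were 11.2 ± 0.263 (SD, n = 2) and 140 ± 6.35, which is 12.5-fold higher in LXRDKO, and the log2 fold change was 3.53 (standard error, SE, 0.29). Both replicate pairs were close together, but the WT values rest on 10 and 13 reads, whose counting error alone gives a standard error of 0.61 for the log2 ratio of the WT livers.

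Gm42047 (ENSMUSG00000110631) is a lincRNA on chromosome 8 from 121833247 to 121841178, plus strand. It had 363 and 309 normalized counts in WT against 2944 and 3595 in LXRDKO, with means of 336 ± 38.0 and 3270 ± 460. It was 9.74-fold higher in LXRDKO, with a log2 fold change of 3.28 (SE 0.15). Its lowest LXRDKO liver stood 3.02 above its highest WT liver on the log2 scale, while the replicates lay 0.23 and 0.29 apart. Of the lincRNAs that share windows with it, Gm47939 and Gm43549 had at most 1.90 normalized counts in any liver. Gm47761 had 3.42 and 14.4 in WT against 72.1 and 108 in LXRDKO, a log2 fold change of 3.44 (SE 0.65, limma adjusted P = 0.131, DESeq2 adjusted P = 1.12e-04). Leaving out WT replicate 1 gave 2.53 and leaving out WT replicate 2 gave 4.34. Without LXRDKO replicate 1 it was 3.73 and without LXRDKO replicate 2 it was 3.15. This gene was chosen after its values were seen. How much of either signal comes from reads that match both genes was not tested.

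Gm48199 (ENSMUSG00000113399), a lincRNA of 3 exons on chromosome 13 from 52180411 to 52181637, plus strand, was the least even of the 3. The WT livers had 68.4 and 44.1 normalized counts and the LXRDKO livers 619 and 396. Means were 56.3 ± 17.2 and 507 ± 158, that is 9.01-fold higher in LXRDKO, and the log2 fold change was 3.15 (SE 0.32). Replicates differed by 0.62 in WT and 0.64 in LXRDKO on the log2 scale, about the same in both genotypes, and the gap between the nearest livers of the groups was 2.51.

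Gm2788 and 0610005C13Rik were less abundant in LXRDKO livers, again with no overlap between the groups. Gm2788 (ENSMUSG00000085995), with 7 annotated transcripts on chromosome 7 from 48877958 to 48913040, plus strand, had 2027 and 2078 normalized counts in WT against 710 and 799 in LXRDKO. Its mean dropped from 2052 ± 36.0 to 754 ± 62.7, which is 2.72-fold lower, with a log2 fold change of −1.45 (SE 0.11). The replicates differed by 0.036 and 0.17 on the log2 scale, against a gap of 1.34 between the nearest livers.

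0610005C13Rik (ENSMUSG00000109644), with 11 annotated transcripts on chromosome 7 from 45567794 to 45575327, minus strand, had 15353 and 13822 normalized counts in WT livers. The LXRDKO livers had 9640 and 8776. Means were 14587 ± 1083 and 9208 ± 611, which is 1.58-fold lower, with a log2 fold change of −0.66 (SE 0.10). This was the smallest difference and the most abundant RNA of the 5. The gap between the nearest livers was 0.52, and the replicates lay 0.15 and 0.14 apart.

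**Figure D2:**
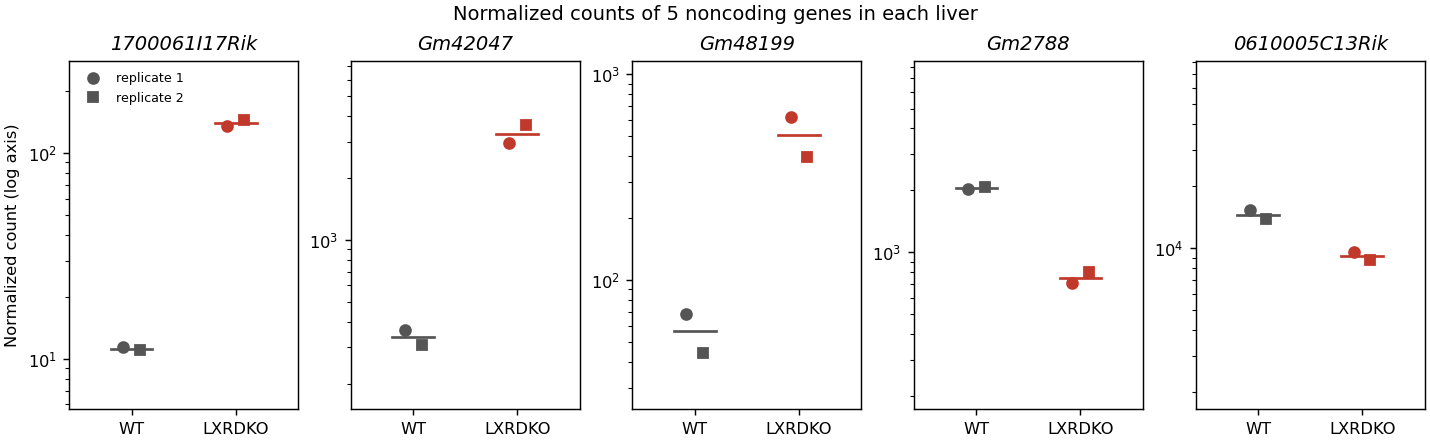
Normalized counts of the 5 noncoding genes (y axes, log scale, each panel with its own range but the same span) in each WT and LXRDKO liver (n = 2 each), with circles for replicate 1, squares for replicate 2 and lines for the group means. The groups do not overlap in any panel, and the change is largest for 1700061I17Rik (12.5-fold) and smallest for 0610005C13Rik (1.58-fold lower).

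Ranks among the 1398 long noncoding genes tested place these values, on a scale of normalized counts per kilobase of exon. 0610005C13Rik ranked 4 in WT and 8 in LXRDKO, at 4071 and 2570 per kilobase. Gm2788 moved from rank 113 to rank 267, at 271 and 99.4 per kilobase. Gm48199 moved from rank 231 to 26, Gm42047 from 385 to 51 and 1700061I17Rik from 1251 to 335. The last gene was thus near the bottom of the class in WT, at 5.72 per kilobase, and at 71.5 in LXRDKO.

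By size of rise, 1700061I17Rik ranked 2, Gm42047 ranked 4 and Gm48199 ranked 6 among these long noncoding genes. Gm2788 ranked 20 and 0610005C13Rik ranked 104 by size of fall. The groups were separate in all 5 genes, and in 44.7% of all genes tested (21.7% with LXRDKO higher and 23% with LXRDKO lower). limma called 4 of the 5 (adjusted P under 0.05), all but 0610005C13Rik, among 50 calls in 15578 genes, which is 0.321% of the genes tested. edgeR called the same number, 4, with 0.311% of all genes called, and DESeq2 called all 5, with 3.59% of all genes called (1.56% higher and 2.03% lower). Since the genes were chosen from this comparison, nothing follows from these shares.

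Beyond these 5, the median log2 fold change of the other 1393 long noncoding genes tested was 0.05, against −0.01 for 13408 protein-coding genes. The middle of their distribution, from the 5th to the 95th percentile, ran from −0.79 to 0.96. limma called 2 of them (0.144%), and DESeq2 called 27 (1.86% of 1453), of which 16 were higher (1.1%) and 11 lower (0.757%), while it called 3.87% of protein-coding genes. At an unadjusted P under 0.05 limma had 8.69%, and the groups were separate with LXRDKO higher in 22.3% and with LXRDKO lower in 15.6% of them. They were low in abundance, with a median of 37.8 normalized counts in WT against 864 for protein-coding genes.

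The 2 calls by limma were falls. 1810008I18Rik, on chromosome 7 between 65803111 and 65806449, had 4419 and 4853 normalized counts in WT against 1594 and 1435 in LXRDKO, a log2 fold change of −1.61 (SE 0.10, limma adjusted P = 0.0199). 4732419C18Rik, on chromosome 8 between 123744631 and 123754726, had 441 and 572 in WT against 146 and 142 in LXRDKO (−1.80, SE 0.19, limma adjusted P = 0.0434). The call for 4732419C18Rik was lost with a stricter filter or another scaling, and both were lost without LXRDKO replicate 1 (limma adjusted P = 0.0952 for 1810008I18Rik and 0.199 for 4732419C18Rik) and without LXRDKO replicate 2 (0.0865 and 0.211).

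**Figure D3:**
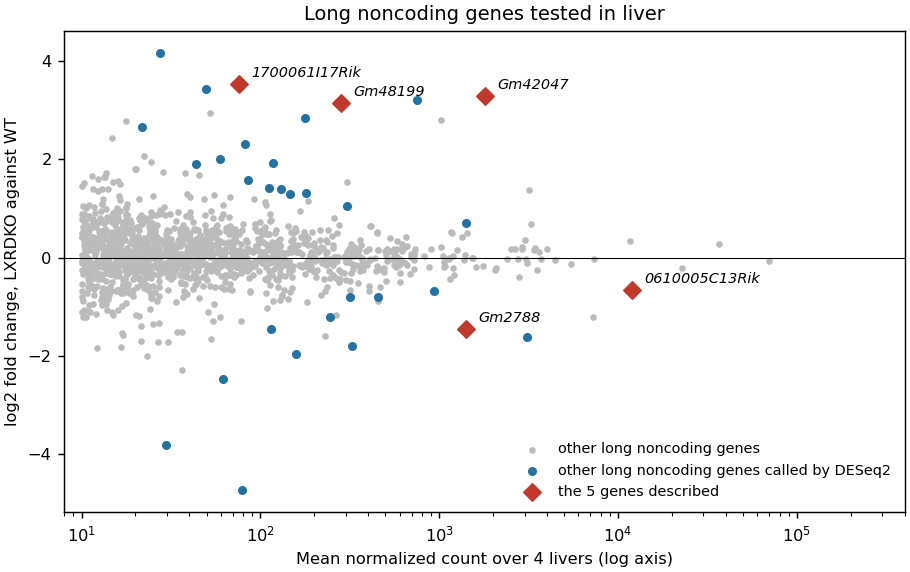
Log2 fold change of LXRDKO against WT (y axis) against the mean normalized count over 4 livers (x axis, log scale) for the long noncoding genes tested, with the 5 genes as red diamonds and other genes called by DESeq2 in blue. Most grey points lie between −0.79 and 0.96, and 1700061I17Rik, Gm42047 and Gm48199 lie above 3.

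The genes whose levels over the 4 livers lay nearest to each of the 5 were found by the distance between centred log2 values, where 0 is an identical profile. Gm42047 was the nearest gene to 1700061I17Rik and the reverse, at a distance of 0.32. Sult2a7, a sulfotransferase, came next for 1700061I17Rik (0.55) and was also among the 3 nearest to Gm42047 (0.63), with Atp8b5, a phospholipid flippase, at 0.51. Sult2a7 had 54.7 and 40.7 normalized counts in WT against 559 and 857 in LXRDKO (log2 fold change 3.84, limma adjusted P = 0.0239). The third gene near 1700061I17Rik was Gm48199 (0.76).

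Nearest to Gm48199 were Meg3 (0.49) and Rian (0.67), maternally expressed noncoding RNAs of the imprinted Dlk1-Dio3 region, and Sirpb1a (0.70). All 3 share with Gm48199 the higher value in replicate 1 of LXRDKO. Sirpb1a had only 4.56 and 4.24 normalized counts in WT against 56.0 and 22.5 in LXRDKO. For Gm2788 the nearest genes were Ppm1j (0.066), a protein phosphatase, Ces1e (0.11), a carboxylesterase, and Tspan18 (0.13), a tetraspanin. Ppm1j had only 17.1 and 18.7 normalized counts in WT against 5.70 and 6.43 in LXRDKO, so its distance rests on few reads. Ces1e had 12752 and 13020 normalized counts in WT against 4715 and 4776 in LXRDKO (log2 fold change −1.44, limma adjusted P = 0.0147).

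For 0610005C13Rik they were the small nucleolar RNA Gm24233 (0.017), Keg1 (0.045) and Gm26964 (0.067). Keg1 had normalized counts close to those of 0610005C13Rik, 15566 and 13503 in WT against 9413 and 8758 in LXRDKO (−0.68, limma adjusted P = 0.106). Per kilobase of exon it stood at 2566 in WT, against 4071 for 0610005C13Rik. Likeness over 4 livers rests on 2 livers per genotype. It is a description of these profiles. The nearest genes were picked by the same WT and LXRDKO values, so their P values in that comparison give no support.

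The next comparison asked whether genes near the 5 loci also differed. Within 250 kb lay 70 other genes of the table, of which 40 were tested. limma called none of the 40, with 12 (30.0%) at an unadjusted P under 0.05, against 13.3% of all genes at that level. DESeq2 called 6 (15.0%, against 3.59% of all genes), namely Frrs1, Csrp3, E2f8 and Nav2 as lower and Bax and Car11 as higher. All but Frrs1 lie on chromosome 7 within 5 Mb of Nr1h2, one of the deleted genes. The median log2 fold change of the 40 genes was −0.10.

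The 3 neighbours of Gm2788 among the 6 differed in the same direction as the noncoding gene. E2f8, a transcriptional repressor of the E2F family, lies on the opposite strand of chromosome 7 from 48866429 to 48881596, across the start of Gm2788. It had 1228 and 1550 normalized counts in WT against 488 and 608 in LXRDKO (log2 fold change −1.34, SE 0.17, limma adjusted P = 0.0657, DESeq2 adjusted P = 2.85e-08). Nav2, a neuron navigator gene on the same strand, overlaps the end of Gm2788 and had 4750 and 5106 in WT against 3241 and 2653 in LXRDKO (−0.75, SE 0.12, limma adjusted P = 0.108, DESeq2 adjusted P = 3.78e-04). Csrp3, which encodes muscle LIM protein, is 29925 bp away and had 998 and 1100 in WT against 486 and 701 in LXRDKO (−0.84, SE 0.20, limma adjusted P = 0.181, DESeq2 adjusted P = 0.0111).

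Exons of Gm2788 overlap those of E2f8 by 610 bp (8.04% of the Gm2788 exon length), those of Nav2 by 295 bp (3.89%) and those of the lincRNA Gm45282 by 122 bp (1.61%). The library kit marks the strand, but the strand setting of the counting is not given in the sources used here. Reads from the shared bases of E2f8 and Gm2788 can therefore not be told apart if strand was ignored, and strand cannot separate those shared with Nav2. Htatip2, 846075 bp away and the nearest measured protein-coding gene beyond, had a log2 fold change of 0.11 (limma adjusted P = 0.887).

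0610005C13Rik overlaps Bcat2, the mitochondrial branched-chain aminotransferase, on the opposite strand by 622 bp of exon (17.4% of its exon length). Bcat2 had 1414 and 1406 normalized counts in WT against 1492 and 1418 in LXRDKO (0.04, SE 0.10, limma adjusted P = 0.898), a difference smaller than its SE. Of the 24 genes tested within 250 kb, those called by DESeq2 were both higher in LXRDKO, against the direction of 0610005C13Rik. Car11, a carbonic anhydrase-related gene 124516 bp away, had 24.0 and 22.1 in WT against 137 and 105 in LXRDKO (2.33, SE 0.29, limma adjusted P = 0.0615, DESeq2 adjusted P = 1.42e-05). Bax, a pro-apoptotic BCL2 family gene, had 609 and 735 in WT against 1056 and 1104 in LXRDKO (0.69, SE 0.13, limma adjusted P = 0.136, DESeq2 adjusted P = 0.00884).

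Fgf21, a hepatic hormone of the fasting response and the nearest tested protein-coding gene on one side at 38559 bp, had 67.3 and 698 normalized counts in WT against 40.8 and 242 in LXRDKO. Its replicates differed more than its groups (−1.11, SE 1.27, limma adjusted P = 0.776). Hsd17b14, 42 bp away on the other side, was below the level tested.

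Around the 3 genes that were higher in LXRDKO, limma called no neighbour. Gm42047 lies between Klhdc4, a kelch-domain gene 3678 bp away (705 and 579 in WT, 782 and 829 in LXRDKO, log2 fold change 0.33, limma adjusted P = 0.397), and Slc7a5, an amino acid transporter 39972 bp away (200 and 125 in WT, 140 and 111 in LXRDKO, −0.34, limma adjusted P = 0.695). Its span lies within Gm20388, a protein-coding annotation on the same strand, with no exon shared. The 7 genes tested within 250 kb ranged from −0.34 to 0.38. The 4 genes tested near 1700061I17Rik ranged from −0.46 to −0.11, all below 0, and the lowest was Frrs1, a ferric-chelate reductase-like gene, with 2690 and 2957 in WT against 2083 and 2024 in LXRDKO (limma adjusted P = 0.153, DESeq2 adjusted P = 0.0431). The nearest of them, 4930455H04Rik at 76116 bp, had a log2 fold change of −0.31 (limma adjusted P = 0.838), and Plppr4 on the other side was below the level tested.

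Gm48199 lies in a sparse region, with no gene tested within 250 kb. On one side the nearest measured protein-coding gene is Gadd45g, a stress-response gene 331943 bp away, with 238 and 751 normalized counts in WT against 1690 and 1753 in LXRDKO. Its log2 fold change was 2.02 (SE 0.50, limma adjusted P = 0.205, DESeq2 adjusted P = 0.224), with no overlap between groups but WT livers far apart. Dropping WT replicate 1 gave 1.19 and dropping WT replicate 2 gave 2.85. Without LXRDKO replicate 1 it was 2.05 and without LXRDKO replicate 2 it was 1.99. Diras2 on the other side was below the level tested.

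**Figure D4:**
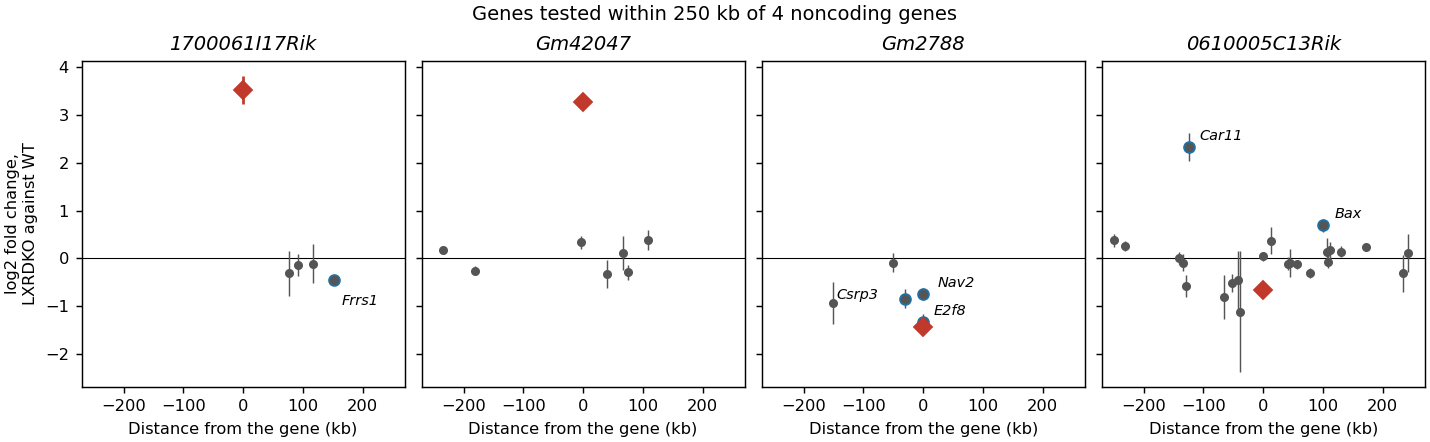
Log2 fold change with its standard error (y axis) of each gene tested within 250 kb of 4 of the noncoding genes against its distance (x axis, kb, 0 for overlapping genes, negative for upstream of the noncoding gene), with the noncoding gene as a red diamond and genes called by DESeq2 outlined in blue. E2f8, Nav2 and Csrp3 lie below 0 with Gm2788, while Car11 at 2.33 lies above 0610005C13Rik.

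Noncoding RNAs of known families gave a wider view. Of 66 genes on 5 lists, 47 were in the table and 41 were tested. limma called none, with 5 at an unadjusted P under 0.05, beside 13.3% of all genes tested at that level. DESeq2 called 4, all higher in LXRDKO, beside 1.56% of all genes called higher. The groups were separate with LXRDKO higher in 15 of the 41 and lower in 1, beside 21.7% and 23% of all genes tested, and the median log2 fold change was 0.18, against −0.0046 over all genes tested.

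Imprinted and dosage RNAs had the highest list median, 0.43 over 9 genes. Meg3 had 152 and 115 normalized counts in WT against 1935 and 787 in LXRDKO (log2 fold change 3.21, SE 0.42, limma adjusted P = 0.0706, DESeq2 adjusted P = 3.83e-05). Rian had 51.3 and 28.0 in WT against 462 and 167 in LXRDKO (2.84, SE 0.55, limma adjusted P = 0.134, DESeq2 adjusted P = 7.03e-07). Without LXRDKO replicate 1 the log2 fold changes of Meg3 and Rian were 2.56 and 2.11, and without LXRDKO replicate 2 they were 3.86 and 3.57. For Meg3 the value became 3.41 once WT replicate 1 was dropped, and 3.02 once WT replicate 2 was dropped. For Rian these values were 3.27 and 2.42. Each of these fits leaves 1 liver in a group, so only effect sizes are given here.

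The 8 p53-associated genes tested had a median of 0.32. They include Meg3, Pvt1, Neat1, Tug1 and Lncpint from the other lists and the protein-coding Trp53rka. This median is therefore not separate from those of the other lists. Trp53cor1, also known as lincRNA-p21, had 1.14 and 2.55 normalized counts in WT against 30.4 and 76.1 in LXRDKO (4.16, SE 0.62, limma adjusted P = 0.0893, DESeq2 adjusted P = 3.01e-04). Its WT values are 1 and 3 reads, so the size of this fold depends on the pseudocount. Trp53cor1 reached the level tested only through its LXRDKO livers. Snhg15 led the 17 snoRNA host genes tested, whose median was 0.16, with 70.7 and 143 in WT against 223 and 287 in LXRDKO (1.32, SE 0.37, limma adjusted P = 0.239, DESeq2 adjusted P = 0.0356). Snhg4 followed at 0.51 (limma adjusted P = 0.593).

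Among 10 nuclear and general RNAs, with a median of 0.18, the largest values were those of Pvt1 (0.57, limma adjusted P = 0.490) and Neat1, the scaffold of paraspeckles, which had 9952 and 10617 normalized counts in WT against 14307 and 11933 in LXRDKO (0.35, limma adjusted P = 0.316). Of 13 RNAs listed as linked to LXR or liver lipids, 5 were in the table and 3 were tested, with a median of −0.20. Lexis and Mexis were among those not found under the listed symbols. One of the 3 was H19 (−0.20), which is also on the imprinted list. Gm15441 ranged from 58.8 to 620 over the 4 livers with overlap between groups (−1.60, limma adjusted P = 0.483), and B930025P03Rik was at 0.36 (limma adjusted P = 0.671).

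Sums of some markers of other liver cells also differed between the genotypes in the same libraries. Summed over 10 Kupffer cell and macrophage markers, the WT livers had 15300 and 17418 normalized counts and the LXRDKO livers 11055 and 6496. limma called 3 of the 10 as lower (Marco, Cd5l and Clec4f), beside 0.186% of all genes tested. DESeq2 called 5 as lower, with Vsig4 and Timd4 besides those 3, beside 2.03% of all genes. In all, 6 of the 10 were lower in both LXRDKO livers, beside 23% of all genes tested. The markers did not fall as a group. C1qa, C1qb, C1qc and Csf1r overlapped between the groups, with C1qb at a log2 fold change of 0.06 and Csf1r at 0.05. The 6 endothelial markers summed to 10670 and 9591 in WT against 7499 and 5871 in LXRDKO, with Kdr and Cdh5 called lower by limma. In all, 4 of the 6 were lower in both LXRDKO livers. Stab2 and Lyve1 overlapped between the groups, and Lyve1 had a log2 fold change of 0.23. The 9 lymphocyte markers were low, at 233 and 354 in WT against 213 and 151 in LXRDKO. Of the 8 that were tested, 6 were lower in both LXRDKO livers. Their list median was −0.94 on the log2 scale, and limma and DESeq2 called 0, with 4 at an unadjusted limma P under 0.05.

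The 6 biliary markers summed to 2092 and 3628 in WT against 4617 and 5477 in LXRDKO, mostly from Spp1, and the 7 stellate and fibroblast markers to 13544 and 16988 in WT against 19587 and 22347 in LXRDKO. All 6 biliary markers and 4 of the 7 stellate and fibroblast markers were higher in both LXRDKO livers, beside 21.7% of all genes tested. The list medians were 0.90 and 0.48 on the log2 scale. limma called 0 of these 6 and 0 of these 7, with 3 and 4 at an unadjusted P under 0.05. DESeq2 called Epcam among the biliary markers and Reln and Dcn among the stellate markers, all higher in LXRDKO, while Col1a1 and Col3a1 overlapped between the groups. The 9 hepatocyte markers summed to between 6690780 and 7887980 in the 4 livers, with overlap between genotypes, and Alb made up most of that sum. limma called 0 of the 9, with 2 at an unadjusted P under 0.05, and DESeq2 called Hnf4a (1.52-fold higher in LXRDKO, adjusted P = 0.0115) and Tat (1.58-fold higher, adjusted P = 0.00675). In whole liver, fewer cells of a type and less RNA per cell cannot be told apart, and whether any of the 5 noncoding genes moved with a cell type was not tested.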

How the data were processed

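RNA-Seq of livers from 2 WT and 2 LXRDKO mice was used. Per the labels and the methods of the study, polyadenylated RNA was captured with a KAPA Stranded kit, sequenced as single-end 50 bp reads on a HiSeq3000, checked with FastQC, aligned to mm10 with STAR 2.6.0c and normalized with DESeq2. The tool that counted reads, its strand setting and its use of multimapping reads are not given in the sources used here. The deposited values are a normalized signal, made by the authors by dividing the count of each gene by 1 size factor per library (0.877 and 1.18 for WT, 1.05 and 0.933 for LXRDKO). All values (100%) were whole multiples of what 1 read is worth, within 0.001 read plus 1e-06 of the value, so reads could be recovered.

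Coordinates and gene types were taken from GENCODE M21, which held 24987 of the identifiers and lacked 23. limma 3.58.1 (R 4.3.3) compared log2(normalized count + 1) between genotypes, with a trend of variance on mean, for the 15578 genes whose mean reached 10, with Benjamini-Hochberg adjustment over all of them. Fold changes on this scale understate those of low genes. With 2 livers against 2, an exact two-sided permutation test cannot go below 0.333. As alternatives, the recovered reads were tested with DESeq2 1.42.0 and edgeR 4.0.16, pseudocounts, filters and scalings were varied, a replicate block was fitted, and the fit was repeated without 1 liver at a time. No label pairs the mice by replicate number. The correlation of replicate deviations was 0.0031, which with 2 livers per genotype cannot exclude a pairing.

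The genes, lists and tests were chosen with earlier results of these data known. Named genes are the 5, those overlapping them, the nearest measured protein-coding genes, the 3 with the nearest profiles, other long noncoding genes called by limma, the 2 largest changes of each noncoding list, and the 2 receptors. Further genes called by DESeq2 alone near a locus, and Gm47761, were named after their values were seen. ATAC-Seq, ChIP-Seq and agonist data were not used here.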

Additional observations from a re-analysis of the deposited data

How the results depend on the processing

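Directions of all 5 noncoding genes held under every alternative run. The genes were chosen from this comparison and their groups do not overlap, so leaving out 1 liver could not reverse a direction. That the directions held therefore gives no support. The log2 fold change of 1700061I17Rik, 3.53 as reported, was 3.59 with a pseudocount of 0.5, 2.95 with 8, 3.58 with library-total scaling, 3.65 with DESeq2 and 3.64 with edgeR. Leaving out 1 liver gave 3.48 to 3.58 for 1700061I17Rik, 3.13 to 3.42 for Gm42047, 2.82 to 3.47 for Gm48199, −1.53 to −1.36 for Gm2788 and −0.74 to −0.59 for 0610005C13Rik.

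Calls over all genes (50) became 25 with a mean of at least 50, 1 without the trend and 567 with DESeq2. Among other long noncoding genes (2) they became 1 with a mean of at least 50, 1 with upper-quartile scaling, 1 with library-total scaling, 0 without the trend and 27 with DESeq2. Neighbouring genes (0) became 6 and listed noncoding genes (0) became 4 with DESeq2. The cause was not tested.

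With the replicate number as a block, calls numbered 90 over all genes, 4 among long noncoding genes, 1 among neighbours (E2f8, adjusted P = 0.0284, limma) and 2 on the noncoding lists, but no label pairs the mice by these numbers. Without 1 liver in turn, the counts ran from 2 to 265, 0 to 15, 0 to 2 and 0 to 3. The total was 265 without WT replicate 1, 157 without WT replicate 2, 2 without LXRDKO replicate 1 and 4 without LXRDKO replicate 2, where the lone liver is assumed to vary like the others. Fgf21 ran from −2.79 to 0.56 (0.16 without LXRDKO replicate 1) and Htatip2 from −0.21 to 0.42, both with changes of sign. Library-total scaling shifted the median of all genes by 0.05. Depth limits 1700061I17Rik most, with 10 and 13 reads in WT. Without either LXRDKO replicate, limma no longer called Nr1h3, Nr1h2, Ces1e or Sult2a7 (adjusted P from 0.0768 to 0.132). Leaving out 1 liver moved the log2 fold change of E2f8 from −1.51 to −1.17, Trp53cor1 from 3.51 to 4.81 and Car11 from 2.14 to 2.52. That of Atp8b5 ran from 2.75 to 3.53, Gm11827 from 2.01 to 2.62 and Gm10032 from 1.70 to 2.13. Gm32468 ran from −4.08 to −3.53 and Keg1 from −0.78 to −0.57. Left-out livers moved the log2 fold change of Csrp3 from −1.11 to −0.58, Snhg15 from 0.82 to 1.83, Gm15441 from −2.83 to −0.36 and Gm34654 from −6.06 to −3.38.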

Other observations

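Other long noncoding genes that DESeq2 called were chosen here after their values were seen. Gm32468 had 45.6 and 67.1 normalized counts in WT livers and 3 reads in each LXRDKO liver, and Gm34654 had 41.1 and 267 in WT and again 3 reads in each LXRDKO liver. Their adjusted P values were 0.0512 and 0.130 (limma). Gm11827 went from 33.1 and 21.2 in WT to 136 and 136 in LXRDKO (log2 fold change 2.32, adjusted P = 0.0765, limma), and Gm10032 from 52.5 and 44.1 to 159 and 214 (1.92, adjusted P = 0.0813, limma). In all 4 genes the groups did not overlap, as in 44.7% of all genes tested. The 4 were picked from calls in this same comparison, so nothing follows from that.

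Gm2788 and 0610005C13Rik both lie on chromosome 7, at 4.32 Mb and 1.01 Mb from Nr1h2, one of the deleted genes, and 3.30 Mb from each other. Within 5 Mb of Nr1h2, DESeq2 called 10 of 129 other genes tested (7.75%), against 28 of 1075 (2.605%) on the rest of the chromosome. limma called 1 and 4 of them. Among the 10 called by DESeq2 are Csrp3, E2f8, Nav2, Bax and Car11, named above as neighbours of Gm2788 or 0610005C13Rik. Nearness to these noncoding genes and nearness to Nr1h2 can thus not be told apart here. Groups did not overlap for 47.3% of the genes within 5 Mb and for 46.3% of the rest. The distance was chosen after the values were seen, and the difference was not tested.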
